A study of Sus scrofa with 54 samples.

Results

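Drug and steroid metabolism enzymes were followed in the ileum, the last stretch of the small intestine, of young pigs. The genes were taken by symbol: every gene on the array named CYP with a number, UGT1, UGT2, GST, SULT, ALDH or FMO with a number, without the CYP51 genes of cholesterol synthesis, which gave 50 genes of 6765 with a symbol. They comprised 27 CYP, 2 FMO, 11 ALDH, 1 UGT, 6 GST and 3 SULT genes, and each was represented by its probeset with the highest mean over all 54 arrays. RNA of whole ileal tissue of Large White × Landrace piglets was measured on GeneChip Porcine Genome arrays, with 6 piglets in each of 9 groups. IR piglets were taken from indoor sows at about a day of age, kept in individual isolators and given an antibiotic cocktail every day, with milk replacer until day 28. IN piglets suckled indoor sows and OUT piglets suckled outdoor sows, without that cocktail. All sows had been inseminated by the same boar, all piglets were weaned at day 28 and then received the same creep feed, and different piglets were sampled at day 5, day 28 and day 56. Isolator, antibiotics and milk replacer came together in IR piglets and therefore cannot be told apart, and neither can age, weaning and the change of feed between day 28 and day 56. In comparisons with OUT piglets the sows and their site differed as well, which cannot be told apart from the rearing. IR and IN piglets came from the same indoor sows, but the labels do not name the sow, so littermates could not be paired. Values are log2 signals, so a difference of 1 is a doubling of the signal.

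These enzymes make fat-soluble compounds easier to excrete. Cytochromes P450 (CYP), flavin monooxygenases (FMO) and aldehyde dehydrogenases (ALDH) oxidise drugs, steroids, bile acid precursors, retinoids and aldehydes, and UDP-glucuronosyltransferases (UGT), glutathione S-transferases (GST) and sulfotransferases (SULT) then attach glucuronic acid, glutathione or sulfate. Liver holds most of them, and the intestinal epithelium is the other barrier at which swallowed compounds are oxidised and conjugated before they reach the blood.

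The ileum expressed part of this set. In 33 of the 50 genes the signal reached a log2 value of 4, close to the median of all probesets, in at least 6 arrays: 14 of 27 CYP, both FMO, 8 of 11 ALDH, the UGT, all 6 GST and 2 of 3 SULT genes. The other 17 averaged between 1.52 and 3.01, with 4.57 as the highest single value, and small differences among them lie at the background of the array. These dim genes included CYP7A1, the rate-limiting enzyme of bile acid synthesis, CYP8B1, which shapes the bile acids formed, CYP17A1 and CYP11A1, which make steroid hormones, and CYP2E1, which oxidises ethanol. The brightest probesets of their families were CYP3A29 at a mean of 10.71, FMO5 at 7.32, ALDH1A1 at 11.57, UGT2B31 at 5.99, GSTA1 at 11.47 and SULT1A3 at 5.16, means that depend on each probeset's own binding and therefore do not rank the transcripts. Albumin, the defining product of hepatocytes, averaged 2.31, whereas the fatty acid binding protein FABP2 of enterocytes averaged 13.27.

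**Figure D1:**
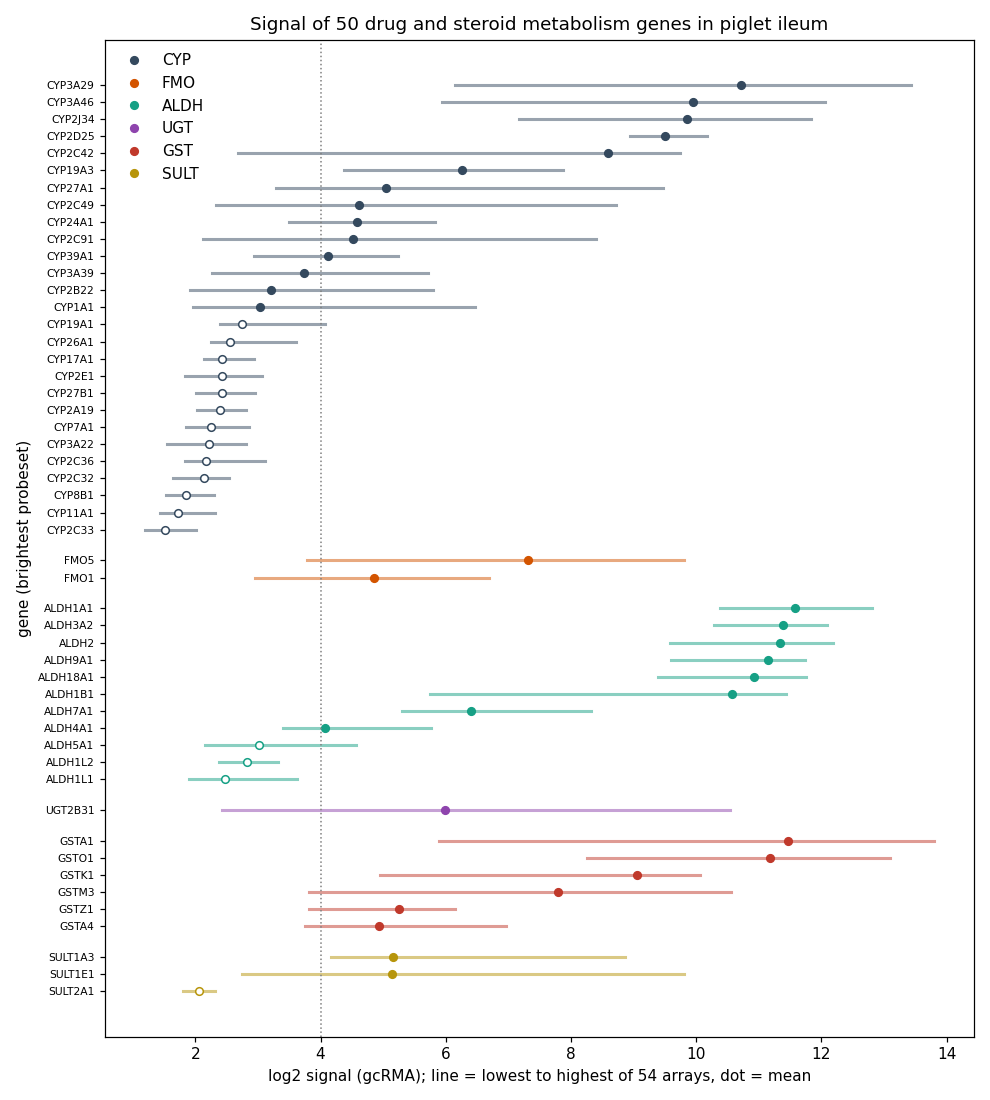
Log2 signal (x axis) of the 50 genes (y axis, grouped by family), where each line runs from the lowest to the highest of 54 arrays, the dot is the mean, and an open dot marks a gene that reached a log2 value of 4 (dotted line) in fewer than 6 arrays. The 17 open dots lie between 1.52 and 3.01, and the widest lines belong to genes such as UGT2B31, GSTA1 and CYP3A29.

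Piglets of the same group differed more in these genes than in most. The median standard deviation within groups was 0.79 for the 33 expressed genes, against 0.47 for all 14189 probesets that reached the same level, and it was highest in SULT1E1 (2.04), GSTM3 (1.56), CYP2C49 (1.52) and UGT2B31 (1.51). OUT replicate 3 at day 5 stood apart, with a mean correlation of 0.881 with its group. It held the lowest value of its group in 23 of the 33 genes and the highest in 5, its summed enterocyte marker signal was 13.64 against 15.38 to 15.90 in the other OUT piglets of that day, and its summed leukocyte marker signal was 9.82 against 6.55 to 7.22. Several of the results that include it, though not all, are also given without it. In whole tissue, fewer cells of a type and less RNA per cell cannot be told apart.

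Few of these enzymes differed between rearing groups. By the criterion of p under 0.01 with at least a 2-fold difference (limma), 1 of the 50 genes passed between IR and IN at day 5, 2 between IR and OUT at day 28, and 1 each between IR and OUT and between IN and OUT at day 56. The same criterion took 0.366% of all probesets between IR and IN at day 5, 0.154% between IR and OUT at day 28, 0.283% between IR and OUT at day 56 and 0.274% between IN and OUT at day 56. In these comparisons 1 gene is 2.0% and 2 genes are 4.0% of the set, which lies above the share of all probesets. The shares were not tested against that background. No gene of the set passed between IR and OUT at day 5 (0.337% of all probesets), IN and OUT at day 5 (0.0499%), IN and OUT at day 28 (0.191%), IR and IN at day 28 (0.495%) or IR and IN at day 56 (0.287%). In those comparisons limma gave 4, 3, 3, 5 and 2 of the 50 genes an unadjusted p under 0.05, in that order, beside 6.26%, 3.99%, 4.99%, 6.73% and 6.18% of all probesets. After Benjamini-Hochberg adjustment over all 24057 probesets no gene of the set passed 0.05 in any rearing comparison, and of all probesets 0.00831% passed between IR and OUT and 0.0125% between IR and IN at day 5, 0.00416% between IR and IN at day 28, 0.0166% between IR and IN at day 56 and 0.0% in the other 5 comparisons. The median log2 difference of the 50 genes lay between -0.08 and 0.19 in the 9 rearing comparisons, and that of all probesets between -0.01 and 0.02.

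UGT2B31, a glucuronosyltransferase of the subfamily that conjugates steroids, bile acids and drugs, had the largest rearing difference of the set. At day 28 its signal in IR piglets was 3.15 at the lowest, 3.69 at the median and 5.73 at the highest. In IN piglets it was 4.18, 5.93 and 9.17, and in OUT piglets 4.62, 7.43 and 10.54. Of the 6 IR piglets 4 lay below every OUT piglet, and the remaining 2 overlapped with the lower OUT values. The IR median lies under a log2 value of 4. The size of any difference from it is thus set partly against the floor of the array. The difference between IR and OUT was -3.29 (SE 1.01, limma, unadjusted p = 0.00453, adjusted p = 0.999), and an exact two-sided permutation test gave p = 0.0108. The difference between IR and IN at day 28, -2.17, did not pass (limma, unadjusted p = 0.0454). The call for IR against OUT was lost without any 1 of IR replicates 1, 3 or 4 or OUT replicates 1 or 3, where the difference was -3.10, -3.14, -3.14, -3.03 and -2.65. It was also lost with the replicate number as a block, at the same difference of -3.29. A dimmer probeset of UGT2B31, with a mean of 4.04, differed by -2.89 (SE 0.91) in the same comparison.

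The timing of UGT2B31 over age differed in value among the groups. At day 5 all 18 piglets lay between 2.43 and 4.52, near the background of the array. Means in IR piglets were 3.99, 4.08 and 8.59 at day 5, day 28 and day 56, those in IN piglets 3.80, 6.25 and 8.35, and those in OUT piglets 3.81, 7.36 and 7.69. At day 56 the groups overlapped, with ranges of 6.41 to 10.42 in IR, 4.92 to 10.08 in IN and 5.86 to 9.23 in OUT piglets. Within groups, limma called a rise of UGT2B31 at day 28 over day 5 in IN (2.45, SE 0.85, adjusted p = 0.0327) and OUT (3.55, SE 0.85, adjusted p = 0.00247) and not in IR (0.09, SE 0.85, adjusted p = 0.963). The rise at day 56 over day 28 was called in IR (4.51, SE 0.85, adjusted p = 0.000522) and not in IN (2.10, adjusted p = 0.142) or OUT (0.32, adjusted p = 0.871). The difference between IR and OUT in the later change was 4.19 (SE 1.2, limma, unadjusted p = 0.00105, adjusted p = 0.9998), so this interaction did not pass over all probesets.

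FMO1, a flavin monooxygenase that oxidises nitrogen and sulfur atoms of drugs, was also lower in IR piglets at day 28. Its lowest, median and highest values were 2.96, 3.99 and 4.47 in IR piglets, 3.80, 5.35 and 6.56 in IN piglets and 4.40, 5.74 and 6.69 in OUT piglets. All but 1 of the IR piglets lay below every OUT piglet. The IR median of 3.99 lies just under a log2 value of 4. The size of any difference from it is thus set partly against the floor of the array. The difference between IR and OUT was -1.70 (SE 0.45, limma, unadjusted p = 0.00154, adjusted p = 0.999, exact two-sided permutation p = 0.00433), and leaving out each array of the day in turn kept the call with values of -1.94 to -1.48. Against IN the difference was -1.29, with a limma p of 0.0112 that misses the criterion. The groups overlapped at day 56, where FMO1 averaged 5.08 ± 0.65 in IR, 5.17 ± 0.55 in IN and 5.17 ± 0.76 in OUT piglets (SD, n = 6 each). FMO5, whose product oxidises ketones in humans, did not pass at day 28, and at day 56 its difference between IR and OUT was 1.09 (SE 0.39, limma, unadjusted p = 0.0116, adjusted p = 0.655). In the IR and OUT comparison of day 28, none of 9 enterocyte markers passed the criterion and their median difference was 0.01. The summed enterocyte signal ranged from 15.95 to 16.23 in IR, 15.32 to 16.37 in IN and 15.95 to 16.42 in OUT piglets.

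GSTO1, the omega-class transferase that reduces dehydroascorbate and methylated arsenic, was higher in IR than in IN piglets at day 5. The lowest, median and highest values were 9.99, 10.44 and 12.45 in IR piglets, against 8.27, 8.90 and 9.40 in IN piglets, and every IR piglet exceeded every IN piglet. The 6 OUT piglets spread over both, with 8.26, 10.05 and 11.66. The difference between IR and IN was 2.01 (SE 0.53, limma, unadjusted p = 0.00147, adjusted p = 0.335), the exact two-sided permutation p was 0.00216, the smallest that 924 splits can give, and leaving out each array in turn kept the call with 1.70 to 2.19. Between IR and OUT at day 5 the means were 10.89 ± 0.99 and 9.92 ± 1.33 (SD, n = 6 each), which did not pass. Without OUT replicate 3, at 11.66, that difference was 1.32 (SE 0.49, limma, unadjusted p = 0.0155, adjusted p = 0.681). Of 10 hepatocyte markers, the apolipoprotein APOA2, which enterocytes also make, was the 1 that passed between IR and IN at day 5. The summed signal of that list was 9.58 to 11.87 in IR and 6.24 to 10.42 in IN piglets. No enterocyte marker passed, but the summed enterocyte signal was 15.72 to 16.16 in IR and 15.28 to 15.8 in IN piglets. IR replicates 1 and 2 held the highest GSTO1 of their group (11.80 and 12.45) and its highest enterocyte sums (16.15 and 16.16). Whether these markers account for any of the GSTO1 difference was not tested.

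CYP2C49, one of the pig CYP2C enzymes that oxidise drugs, was higher at day 56 in both IR and IN piglets than in OUT piglets. IR piglets had 3.46, 4.54 and 4.84 as the lowest, median and highest value, IN piglets 3.33, 4.19 and 5.54, and OUT piglets 2.34, 2.92 and 4.37. The groups overlapped, with 5 of 6 OUT piglets below every IR piglet and 4 of 6 below every IN piglet. The OUT median of 2.92 lies at the level of the dim genes. The size of any difference from it is therefore set against the floor of the array. Both differences were 1.17 (SE 0.39 each, limma, unadjusted p = 0.00831 for IR and 0.00836 for IN, adjusted p = 0.655 and 0.533). Exact two-sided permutation tests gave p = 0.0195 for IR and p = 0.0281 for IN against OUT. These calls sat at the edge of the criterion: leaving out a single array ended the call in 10 of 18 cases for IR (1.01 to 1.42 over all 18) and in 9 of 18 cases for IN (0.92 to 1.42). For IR these arrays were IR replicates 1, 2 and 3 and the unnumbered IR piglet, IN replicate 5 and the unnumbered IN piglet, and OUT replicates 2, 4, 5 and 6. For IN they were IR replicate 3, IN replicates 1, 4 and 5 and the unnumbered IN piglet, and the same 4 OUT replicates. CYP2C42, which lies near CYP2C49 in the CYP2C cluster and is named here after its values were seen, differed by 0.97 (SE 0.25) between IR and OUT at day 56, just under 2-fold (limma, unadjusted p = 0.00111, adjusted p = 0.651, exact two-sided permutation p = 0.00649). Its values were 9.15 to 9.74 in IR and 7.45 to 9.38 in OUT piglets. None of 6 leukocyte markers passed between IR and OUT at day 56, where their median difference was -0.98, or between IN and OUT, where it was -0.19. The summed leukocyte signal was 9.0 to 10.74 in IR, 9.80 to 11.11 in IN and 9.66 to 12.38 in OUT piglets, and the OUT piglet with 12.38, replicate 5, had the lowest CYP2C49 (2.34) and the lowest CYP2C42 (7.45). Of 4 fibroblast markers, COL1A2 passed between IR and OUT. The part of these markers in the differences was not tested. CYP2C copies are close in sequence, so that a probeset may bind transcripts of its neighbours.

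**Figure D2:**
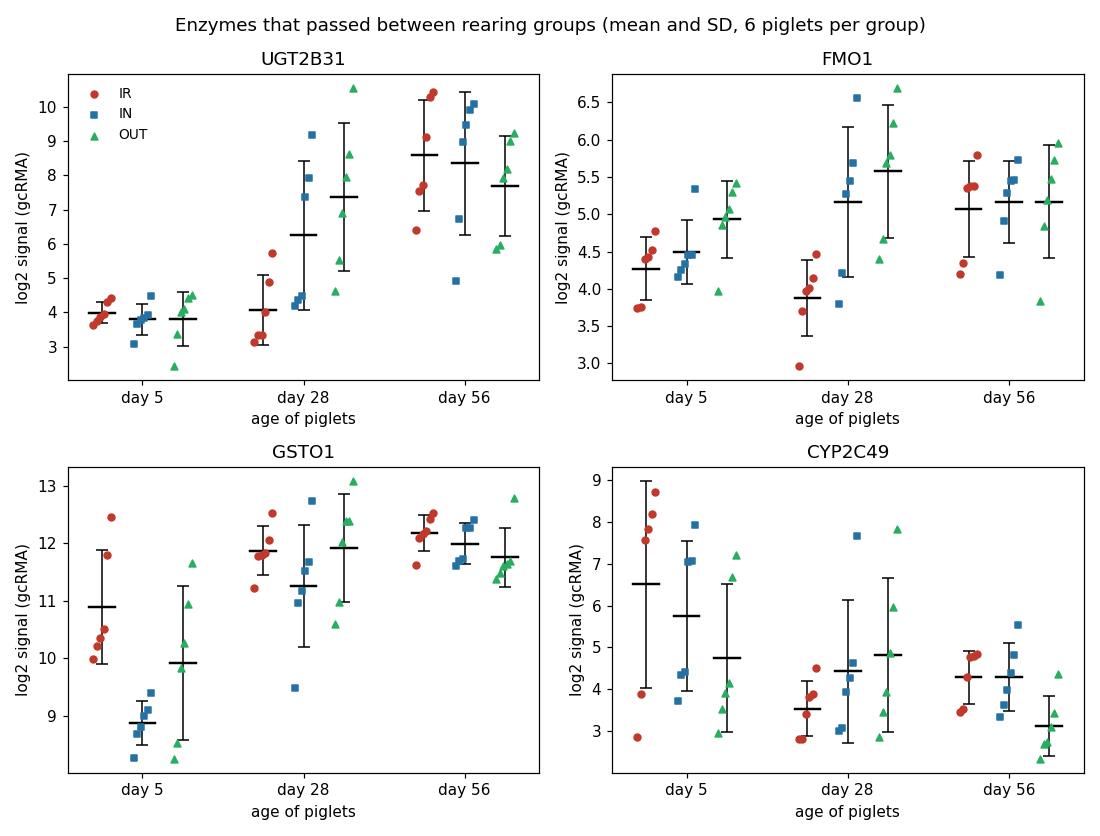
Log2 signal (y axis) of UGT2B31, FMO1, GSTO1 and CYP2C49 in each piglet by age (x axis), with IR as circles, IN as squares and OUT as triangles, and the mean with its SD in black. UGT2B31 in IR piglets at day 28 lies at 3.15 to 5.73 and at day 56 at 6.41 to 10.42, and for GSTO1 at day 5 no IR piglet overlaps with an IN piglet.

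GSTA1 and GSTA4, alpha-class transferases of which GSTA4 handles the lipid peroxidation product 4-hydroxynonenal, did not pass in any rearing comparison. GSTA4 differed by 0.90 between IN and OUT at day 28 (limma, unadjusted p = 0.0202), where IN piglets ranged from 4.42 to 6.59 and OUT piglets from 4.35 to 4.74. The study lists GSTA4 as higher in IN than in OUT piglets at day 28 by the same criterion. Its listed fold change is larger than the difference found here, which is under 2-fold and did not give that call. The study names a moderated F-test with the replicate as a block, and the fit used here had no block. Why the values differ was not tested. GSTA4 differed by -0.81 between IR and OUT at day 5 (limma, unadjusted p = 0.0213), where the OUT values include 6.34 in replicate 3. GSTA1 averaged 11.37 ± 1.07 in IR, 10.08 ± 1.31 in IN and 9.64 ± 2.13 in OUT piglets at day 5 (SD, n = 6 each). Its OUT mean includes 5.89 in replicate 3, and without that array the difference between IR and OUT was 0.98 (SE 0.66).

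By the criterion used for rearing, 10 of the 50 genes passed between day 28 and day 5, beside 7.65% of all probesets, and 3 between day 56 and day 28, beside 2.05%, in each case averaged over the groups. Averaged over the 3 rearing groups, 21 of the 50 genes (42.0%) differed between day 28 and day 5 at an adjusted p under 0.05 (limma), beside 42.8% of all probesets. Of these, 8 were higher and 13 lower at day 28, beside 20.2% and 22.6% of all probesets. Between day 56 and day 28, 7 genes (14.0%) passed, 5 higher and 2 lower, beside 23.4% of all probesets, of which 11.8% were higher and 11.6% lower. By adjusted p the share of the set was thus near the background at the earlier step and below it at the later one. By the criterion used for rearing, 10 of 50 and 3 of 50 lay above the background of 7.65% and 2.05%. These shares were not tested against the background. The median log2 change of the set was -0.09 and -0.03 at these steps, and that of all probesets was -0.01 at both. Dim genes made 6 of the 21 calls and 2 of the 7. By family, the earlier step raised 2 and lowered 10 of 27 CYP genes, of which CYP19A1, CYP26A1, CYP2A19, CYP2C32 and CYP3A22 were dim. It raised 2 and lowered 3 of 11 ALDH genes, of which ALDH1L1 was dim, raised 2 of 6 GST, 1 of 3 SULT and the UGT, and moved neither FMO gene.

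**Figure D3:**
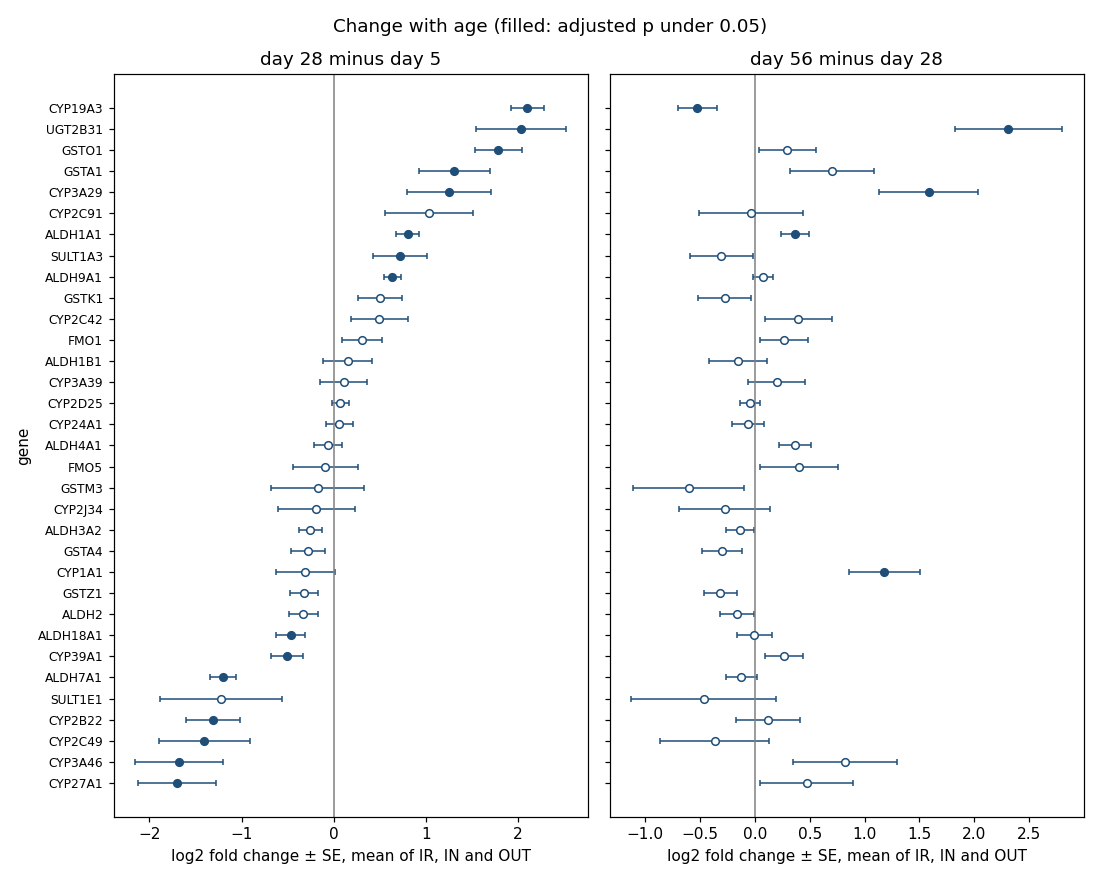
Log2 fold change with its SE (x axis), averaged over IR, IN and OUT, of the 33 expressed genes (y axis) for day 28 minus day 5 (left) and day 56 minus day 28 (right), where filled dots mark an adjusted p under 0.05. CYP19A3, UGT2B31 and GSTO1 lead the rise at day 28 and CYP27A1 and CYP3A46 the fall, and at day 56 UGT2B31 and CYP3A29 rose by 2.31 and 1.58.

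Averaged over the rearing groups, the conjugating enzymes that changed by day 28 all rose. They were 2 of 6 GST, 1 of 3 SULT and the 1 UGT gene, at a step that called 42.8% of all probesets. Within groups, none of them was called in IR piglets, and SULT1A3 was called in IN piglets only. UGT2B31 rose by 2.03 (SE 0.49, limma, adjusted p = 0.000734) and by a further 2.31 at day 56 (SE 0.49, adjusted p = 0.00042). GSTO1 rose by 1.79 (SE 0.26, adjusted p = 2.17e-07), with means at day 28 of 11.87 in IR, 11.26 in IN and 11.91 in OUT piglets against 10.89, 8.88 and 9.92 at day 5, and changed by 0.30 at day 56 without passing. GSTA1 rose by 1.31 (SE 0.39, adjusted p = 0.00531), and by 1.06 without OUT replicate 3 of day 5. A second bright GSTA1 probeset, with a mean of 11.34, differed by 0.60 and did not pass (adjusted p = 0.0748), and the probeset used can also bind related alpha-class transcripts. Within groups, the GSTA1 rise passed in OUT piglets (2.43, SE 0.67, adjusted p = 0.00856), which hold the low array and had 1.68 without it (SE 0.61, adjusted p = 0.0471), and not in IR (0.61) or IN (0.88) piglets. GSTA4 fell at day 28 in OUT piglets (-1.04, SE 0.32, adjusted p = 0.0192) but not on average over the groups (-0.27, adjusted p = 0.233). Both values include OUT replicate 3 of day 5, at 6.34.

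SULT1A3, whose human product sulfates dopamine and other catecholamines, rose by 0.72 at day 28 (SE 0.29, limma, adjusted p = 0.0405). This call was lost in 14 of 54 cases when 1 array was left out (0.56 to 0.96 over all cases): IR replicates 1 and 2, IN replicates 2 and 6 and OUT replicate 6 of day 28, and IR replicates 2, 3 and 4, IN replicate 3 and OUT replicates 1, 2, 4, 5 and 6 of day 5. Most piglets lay between 4 and 6, and 8.86 in OUT replicate 3 at day 5 and 8.60 and 7.69 in IN replicates 2 and 6 at day 28 lay far above. These 3 piglets also had the highest summed leukocyte signals of their groups, 9.82 in the OUT piglet against 6.55 to 7.22 in the others of that day, and 11.32 and 11.33 in IN replicates 2 and 6 against 6.45 to 10.05. The part of this signal in the SULT1A3 change was not tested. Without OUT replicate 3 of day 5 the rise was 0.96 (SE 0.22, adjusted p = 0.000377).

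Among the cytochromes, the neighbouring genes CYP3A29 and CYP3A46 moved in opposite directions between day 5 and day 28, averaged over the groups. Neither was called at that step within IR, IN or OUT piglets alone. Between day 28 and day 56 both averages went up, and only CYP3A29 passed. CYP3A29, the pig enzyme compared with human CYP3A4, the main drug-oxidising P450 of the intestine, rose by 1.25 at day 28 (SE 0.45, limma, adjusted p = 0.0225) and by 1.58 at day 56 (SE 0.45, adjusted p = 0.00838). Its medians at day 5, day 28 and day 56 were 9.09, 9.93 and 13.09 in IR, 9.59, 11.20 and 11.16 in IN and 9.98, 10.17 and 12.28 in OUT piglets. Every IR piglet at day 56 exceeded every IR piglet at day 5. Without OUT replicate 3 of day 5, at 6.15, the rise at day 28 was 1.05 (SE 0.43, adjusted p = 0.045).

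CYP3A46, the adjacent gene in RefSeq, fell by 1.68 at day 28 (SE 0.47, limma, adjusted p = 0.00363) and differed by 0.82 at day 56 without passing (adjusted p = 0.215). Its medians at day 5, day 28 and day 56 were 11.34, 8.46 and 10.40 in IR, 10.99, 10.37 and 9.30 in IN and 10.25, 7.41 and 10.21 in OUT piglets. The values at day 28 were wide, with 5.95 to 12.06 in IN piglets alone. CYP3A22, on the other side of CYP3A46, was dim in all piglets. CYP3A copies are alike in sequence, and how far each probeset binds the transcripts of its neighbours is not known from the values.

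CYP19A3, one of several pig aromatase genes, whose enzymes turn androgens into oestrogens, had the largest rise of the set at day 28 when averaged over the groups. At day 28 it averaged 7.41 ± 0.23 in IR, 6.95 ± 0.64 in IN and 7.05 ± 0.87 in OUT piglets. At day 5 it averaged 5.38 ± 0.54 in IR, 4.69 ± 0.37 in IN and 5.04 ± 0.37 in OUT piglets (SD, n = 6 each). The rise was 2.10 (SE 0.18, limma, adjusted p = 2.48e-13), and it passed in IR (2.03), IN (2.27) and OUT piglets (2.01) alike. By day 56 it had fallen by 0.53 (SE 0.18, adjusted p = 0.0256), a call that was lost without OUT replicate 1 of day 56 (-0.44). All of this came from 1 of 8 probesets annotated to the gene. The other 7 averaged 1.80 to 2.80, never above 3.42, and the brightest of them changed by -0.06 at day 28, so the other probesets did not share the rise and its assignment to CYP19A3 is uncertain.

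CYP1A1, which oxidises polycyclic aromatic compounds and responds to the aryl hydrocarbon receptor, rose at day 56 by 1.18 (SE 0.32, limma, adjusted p = 0.00543). In IR piglets the lowest, median and highest values were 2.54, 3.91 and 5.99 at day 56 and 2.05, 2.15 and 2.38 at day 28, with no overlap, and this rise of 1.94 passed (SE 0.56, adjusted p = 0.0302). It did not pass in IN (0.87) or OUT piglets (0.74). At day 28 the IN piglets ranged from 1.96 to 2.49 and the OUT piglets from 2.07 to 5.98. The day 28 values of the IR and IN piglets lay at background level, so the sizes of these changes are set against the floor of the array.

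Several cytochromes were lower at day 28 than at day 5, averaged over the groups. CYP27A1, the sterol 27-hydroxylase of the alternative bile acid route, fell by 1.70 at day 28 (SE 0.43, limma, adjusted p = 0.0011), with means at day 28 of 4.06 in IR, 4.28 in IN and 4.61 in OUT piglets against 5.41, 6.60 and 6.03 at day 5. CYP2B22, a drug-oxidising pig CYP2B, fell by 1.31 (SE 0.29, adjusted p = 0.000319), with means at day 28 of 2.28 in IR, 3.26 in IN and 2.64 in OUT piglets against 3.72, 4.31 and 4.08 at day 5, so its lower values lie near the background of the array. CYP2C49 fell by 1.40 (SE 0.49, adjusted p = 0.0191). The fall of CYP2C49 passed in IR (-2.97, SE 0.86, adjusted p = 0.0139) and not in IN (-1.32) or OUT (0.08) piglets. The test of that difference between IR and OUT was -3.05 (limma, unadjusted p = 0.0154) and did not pass over all probesets. CYP39A1, which hydroxylates an oxysterol, fell by 0.51 (SE 0.17, adjusted p = 0.016). At day 56 CYP7A1 (0.20) and CYP2E1 (-0.30) passed as well, though both lie at background level.

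Of the aldehyde dehydrogenases, 2 rose and 3 fell at day 28, averaged over the groups. ALDH1A1, which makes retinoic acid from retinal, rose by 0.80 at day 28 (SE 0.12, limma, adjusted p = 8.41e-07), and this passed in IR (0.68), IN (0.77) and OUT piglets (0.96). At day 56 it rose by a further 0.37 (SE 0.12, adjusted p = 0.0269), a call lost without IN replicate 1 of day 56 or IN replicate 2 of day 28 (at the lowest 0.32), and its second bright probeset gave 0.18 there without passing. ALDH7A1, an enzyme of lysine breakdown, fell by 1.2 at day 28 (SE 0.14, adjusted p = 2.57e-09), with means at day 28 of 6.04 in IR, 6.23 in IN and 5.88 in OUT piglets against 7.36, 7.13 and 7.26 at day 5. Its second probeset fell by 0.76. ALDH9A1, which acts in carnitine synthesis, rose by 0.63 (SE 0.09, adjusted p = 2.98e-07), and ALDH18A1, the entry enzyme of proline synthesis, fell by 0.47 (SE 0.16, adjusted p = 0.013). ALDH4A1, of proline breakdown, passed at day 56 in OUT piglets (0.93, SE 0.26, adjusted p = 0.0181), a call lost without OUT replicate 2 or 5 of day 56 (0.85 and 0.72), and had 0.11 in IR and 0.04 in IN piglets. The change in IR piglets minus that in OUT piglets was -0.82 (limma, unadjusted p = 0.0295, adjusted p = 0.9998), and that in IN minus OUT piglets was -0.89 (unadjusted p = 0.0187, adjusted p = 0.429). The OUT median of ALDH4A1 at day 28, 3.63, lies under a log2 value of 4, near the floor of the array. OUT replicates 2 and 5 of day 56 also had the highest summed leukocyte signals of their group, 11.31 and 12.38 against 9.66 to 11.2. The part of this signal in the ALDH4A1 change was not tested.

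Within single groups, the earlier step called 7 of 50 genes in IR (14.0% of all probesets), 11 in IN (21.1%) and 10 in OUT piglets (17.0%). The later step called 3 in IR (4.88%), 0 in IN (5.31%) and 1 in OUT piglets (7.66%). In IN piglets 7 genes had an unadjusted p under 0.05 at that later step (limma), beside 19.5% of all probesets. No gene of the set, and no probeset of the array, had a change over age that differed between rearing groups at an adjusted p under 0.05 (limma, 0.0% in all 6 tests of a difference, with 1 to 6 of the 50 genes and 3.49% to 9.30% of all probesets at an unadjusted p under 0.05 in each).

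SULT1E1, the oestrogen sulfotransferase, is named after its values were seen, since it had the widest spread in the set and passed no test. At day 28 all 6 IR piglets lay between 3.0 and 3.77. IN replicates 3, 4 and 5 held 9.48, 8.73 and 7.39 while the other 3 IN piglets held 2.74 to 3.89. OUT replicates 1 and 2 held 9.81 and 9.73 while the other 4 OUT piglets held 2.82 to 3.62.

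These 5 piglets had CYP3A46 values above the others of their groups at day 28. IN replicates 3, 4 and 5 had 12.06, 11.19 and 11.02 for CYP3A46, against 5.95, 9.72 and 7.17 in the other IN piglets. OUT replicates 1 and 2 had 11.96 and 11.49, against 7.27 to 7.42 in the other 4 OUT piglets. High CYP3A46 also occurred without high SULT1E1, in IR replicates 1 and 2 of day 28, with 10.56 and 11.17 for CYP3A46 and 3.77 and 3.0 for SULT1E1. In the OUT piglets CYP27A1 split the same way, at 6.21 and 7.16 in replicates 1 and 2 and 3.28 to 3.77 in the rest. CYP3A29 (12.60 and 12.66, the rest 8.63 to 10.53) and CYP1A1 (5.98 and 4.41, the rest 2.07 to 2.45) did so too. GSTA1 split the opposite way, at 10.83 and 10.96 in replicates 1 and 2 and 12.48 to 12.92 in the rest. So did CYP19A3 (6.20 and 5.72, the rest 7.46 to 7.87) and GSTO1 (10.60 and 10.98, the rest 12.03 to 13.09). Replicates 1 and 2 also held the highest FMO1 of the OUT piglets, 6.69 and 6.22. Leaving out 1 array at a time does not show what both carry together. UGT2B31 did not split, with 8.63 and 5.52 in OUT replicates 1 and 2 inside the range of the others. The summed enterocyte signal of these OUT piglets was 16.15 and 15.95 in replicates 1 and 2 and 16.11 to 16.42 in the rest, and the summed leukocyte signal was 7.67 and 8.04 against 8.48 to 11.13. These are values of single piglets and no test was made of them.

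**Figure D4:**
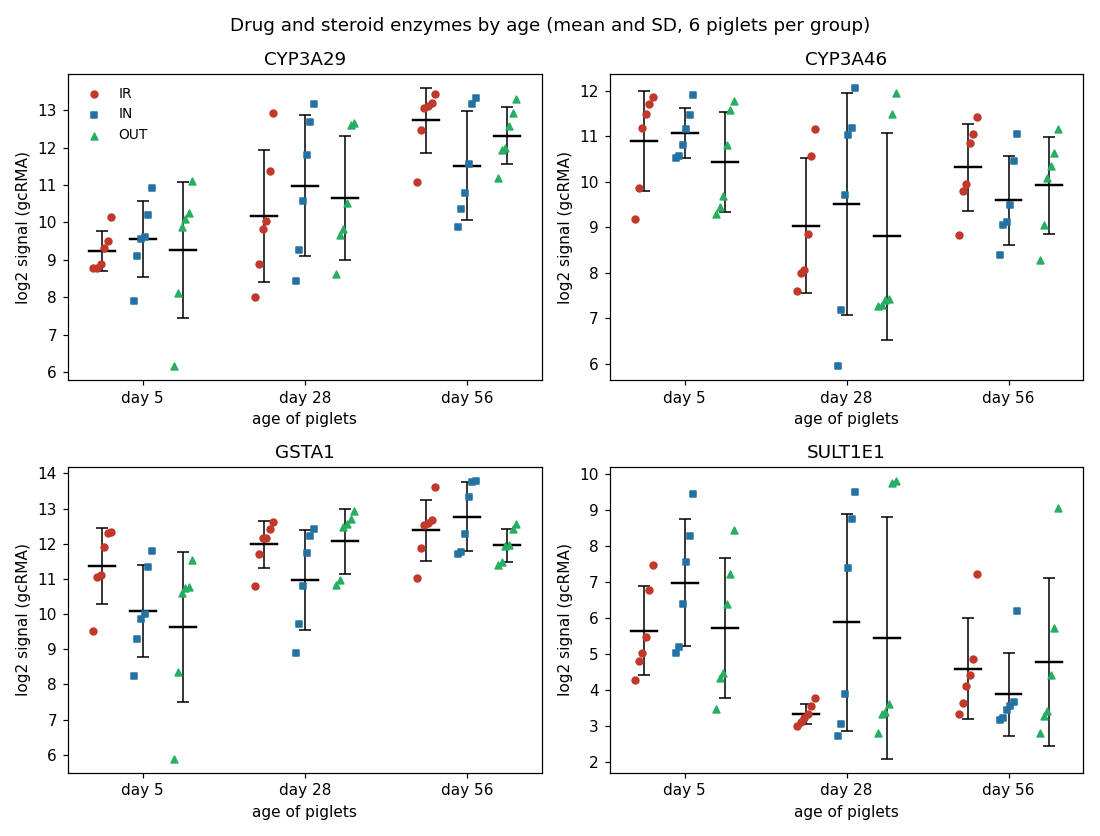
Log2 signal (y axis) of CYP3A29, CYP3A46, GSTA1 and SULT1E1 in each piglet by age (x axis), with IR as circles, IN as squares and OUT as triangles, and the mean with its SD in black. At day 28 SULT1E1 and CYP3A46 each split the OUT piglets into 2 high and 4 low values, while all IR piglets lie at 3.0 to 3.77 for SULT1E1.

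Other genes of the pathway were taken from lists of partners and further enzymes, whose counts at the averaged steps stand beside 42.8% of all probesets called at day 28 and 23.4% at day 56. Of 22 further drug and steroid enzymes measured, 9 rose and 3 fell at day 28 and 8 rose and 1 fell at day 56. EPHX1, the microsomal epoxide hydrolase, rose by 2.35 (SE 0.36) and then 2.11 (SE 0.36). HSD11B2, which inactivates cortisol, rose by 1.70 (SE 0.30) and 0.91 (SE 0.30), and CBR1, a carbonyl reductase, fell by 3.22 (SE 0.50) at day 28. Of 9 electron donors and cofactor suppliers, 4 rose and 3 fell at day 28, among them POR, which passes electrons to microsomal CYPs and rose by 0.73 (SE 0.24), and GCLC, which starts glutathione synthesis and fell by 1.19 (SE 0.24). Of 9 regulators, HNF4A and PPARA rose by 0.33 (SE 0.08) and 0.32 (SE 0.08) at day 28 and RXRA fell by 0.34 (SE 0.06) at day 56. The drug efflux pump ABCB1 rose at both steps, by 0.97 (SE 0.16) and 0.85 (SE 0.16). With each gene represented by its brightest probeset, none of these lists had a gene past the criterion in any rearing comparison. The study lists ABCG2, another efflux pump, as lower in IN than in OUT piglets at day 28. That entry comes from a probeset other than the one used here.

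Cell type markers moved with age beside these enzymes. Of 9 enterocyte markers 5 rose at day 28 and 3 at day 56, with none falling, and the ileal bile acid binding protein FABP6 rose by 6.60 (SE 0.67) and 3.86 (SE 0.67). The summed enterocyte signal had medians at day 28 of 16.18 in IR, 15.98 in IN and 16.15 in OUT piglets, against 15.92, 15.45 and 15.53 at day 5. Of 6 leukocyte markers 4 rose at day 28, with summed medians at day 28 of 10.18 in IR, 9.85 in IN and 9.27 in OUT piglets against 6.86, 7.02 and 6.93 at day 5. Of 10 hepatocyte markers 7 fell at day 28, of which only APOA2 averaged above 4 over all arrays. APOA2 fell by 5.22 (SE 0.59), and all 5 endothelial markers fell. The part of these shifts in the age changes of the enzymes was not tested.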

How the data were processed

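Each of 54 piglets gave 1 array (GeneChip Porcine Genome) from ileal RNA. Per the labels the authors scanned with GCOS 1.2 and normalized by gcRMA, and the deposited values are log2 signals per probeset (-0.26 to 14.72, array medians 3.99 to 4.22), used unchanged. The number of arrays limits the precision. gcRMA pulls dim probesets to a common floor, so that differences there are compressed. Control probesets (66) were left out and 24057 tested. Gene symbols came from the platform annotation. Of the tested probesets, 10099 have 1 symbol, 198 several and 13760 none. The 50 genes came from 77 probesets, 17 genes having several, and 7 probesets of these families with several symbols were not used. By gene ID 49 genes were in RefSeq's pig table (Sscrofa11.1), used for names and neighbours.

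Rearing groups were compared within each day by limma 3.58.1 (R 4.3.3), without a block, at p under 0.01 and at least 2-fold, the criterion of the study's methods. Ages were compared in 1 fit of 9 groups at a Benjamini-Hochberg adjusted p under 0.05 over all probesets. The methods name consecutive runs as a block, but the labels do not give the run, and hybridization batches are not named either. Single genes were checked by exact permutation tests. The limma step was tested on simulated data. The rule for naming genes with values took those called between rearing groups, the 6 largest called rises and falls of each averaged age step, the brightest of each family and those in the study's table of changed genes. CYP2C42, SULT1E1, GSTM3, CYP39A1, ALDH4A1, ALDH9A1, ALDH18A1 and the single genes of the other lists were named outside this rule. The genes and lists were chosen with earlier results of these data known. Samples are separate piglets, and 2 arrays of day 56 carry no number. Label numbers were not taken as pairs, and the labels do not say what the numbers mark. Alternatives were a replicate block, blocks of paired numbers, a filter on dim probesets, quantile normalization, median centring, the next brightest probeset, 1 fit of 9 groups, the moderated F-test, other call rules and each array left out.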

Additional observations from a re-analysis of the deposited data

Results flagged for a closer look

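In 12 of 171 groups of 6 piglets (19 named genes in 9 groups), the highest or lowest piglet stood apart from the others by Dixon's test, against 8.55 expected since chance flags about 1 in 20 groups. OUT replicate 3 at day 5 was the highest of its group for CYP1A1 (6.46, others 2.18 to 3.78) and SULT1A3 (8.86, others 4.16 to 4.81). At day 5 there were also ALDH1A1 in OUT replicate 6 (11.62, others 10.75 to 10.95) and FMO1 in IN replicate 3 (5.34, others 4.16 to 4.45), both the highest, and CYP7A1 in IR replicate 4, the lowest (2.02, others 2.26 to 2.39).

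At day 28 CYP2C49 was highest in IN replicate 5 (7.67, others 3.01 to 4.62) and SULT1A3 lowest in IR replicate 3 (4.37, others 5.01 to 5.33). At day 56 the highest values were ALDH1L1 in the unnumbered IN piglet (2.57, others 2.0 to 2.20), CYP2B22 in IN replicate 5 (4.98, others 2.14 to 2.89) and FMO5 in the unnumbered IR piglet (9.36, others 7.64 to 8.22). GSTO1 in OUT replicate 3 (12.78, others 11.38 to 11.69) and CYP27A1 in OUT replicate 1 (7.12, others 3.39 to 4.46) were the other two. That OUT piglet also held the highest SULT1E1 of its group, 9.05 against 2.82 to 5.73.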

How the results depend on the processing

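Each count of called genes was recomputed under every alternative. With all 9 groups in 1 fit, IR against OUT at day 5 called 1 gene, IR against IN at day 28 called 1, and both comparisons with OUT at day 56 called 0. The moderated F-test called 1 gene for IN against OUT at day 5, 1 for IR against OUT at day 28, 1 for IR against IN at day 28 and 0 for both comparisons with OUT at day 56. By adjusted p all rearing counts became 0. With the replicate block IR against OUT at day 28 called 1 gene, UGT2B31 (-3.29) being lost, and day 56 against day 28 in IN called 1. Blocks of paired numbers gave 0 for IR against OUT and 2 for IN against OUT at day 56, and 1 for day 56 against day 28 in IN. Quantile normalization gave 0 for IN against OUT at day 56.

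Under the rearing criterion the averaged age steps called 10 and 3 genes (7.65% and 2.05% of all probesets), day 28 against day 5 called 4 in IR (6.26%) and 5 in IN (8.07%), and day 56 against day 28 called 2 in IN (2.56%) and 0 in OUT (3.06%, with 7 genes at an unadjusted limma p under 0.05). Fitting each group's own arrays gave 11 for day 28 against day 5 in IR, 1 for the later step in IN and 0 in OUT. The next brightest probeset gave 4, 7 and 6 for day 28 against day 5 in IR, IN and OUT, and 1 and 0 for the later step in IN and OUT. It reversed CYP19A3 (-0.056 and 0.063) and the dim ALDH1L1 (0.006). Among single genes, CYP19A3 at day 56 was lost with both kinds of block (-0.51), SULT1A3 at day 28 with the replicate block (0.72), and ALDH1A1 (0.32) and CYP7A1 (0.15) at day 56 with median centring. The cause was not tested.

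Leaving out 1 array gave, at day 5, 0 to 0 genes for IR against OUT, 0 to 0 for IN against OUT and 1 to 1 for IR against IN. At day 28 the ranges were 1 to 2, 0 to 1 and 0 to 2 in that order, and at day 56 0 to 4 (4 without OUT replicate 1), 0 to 2 and 0 to 0. The averaged age steps ranged from 18 to 25 and from 6 to 9. Day 28 against day 5 gave 5 to 9 in IR, 8 to 13 in IN and 7 to 11 in OUT, and the later step 1 to 4, 0 to 2 and 0 to 3. Of 50 pairs of same-numbered piglets 18 correlated above 0.1 in their deviations (-0.482 to 0.68), and the numbers were not taken as pairs. This check cannot show whether the numbers mark a run or a litter. Signals under 4 limit what the dim genes can show.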
